A study of Mus musculus with 3 samples.

Results

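The 9 genes described here are epithelial keratins and genes of cell adhesion: Krt8, Krt18, Krt19 and Krt7, the adhesion genes Cdh1 and Epcam, and the claudins Cldn3, Cldn4 and Cldn7. They were chosen by name, and all 9 have a row in each of the 3 count tables, which share 15527 genes of 17775 in any. Counts of unique molecular identifiers (UMIs, 1 per captured transcript) were measured by droplet RNA sequencing in cells of the mouse pituitary intermediate lobe (IL), dissected away from the anterior and posterior lobes. There were 3 libraries, 1 per genotype, from 3-month-old mice. All carried Sox9iresCreERT2/+, a tamoxifen-activated Cre recombinase expressed from the Sox9 locus, so that any floxed allele could be deleted only in Sox9-expressing cells and their descendants. WT had no other listed allele. P27NULL was also p27-/-, without Cdkn1b, which encodes p27, a brake on the cell cycle. S2CK was p27-/- with Sox2fl/+, so that Cre could delete 1 Sox2 copy. The study's methods add a Rosa26ReYFP/+ Cre reporter and describe pooled animals, male for WT and of both sexes for the others. The labels place tamoxifen gavage at 4 weeks of age and the study's text places Cre induction at birth, which could not be settled here.

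Keratins are the intermediate filament proteins of epithelial cells. They form filaments only as pairs of a type I chain (Krt18, Krt19) and a type II chain (Krt8, Krt7), and Krt8 with Krt18 is the pair of simple, single-layered epithelia. Cdh1 encodes E-cadherin, which holds epithelial cells together at adherens junctions, Epcam encodes an epithelial surface glycoprotein, and claudins build the strands of tight junctions that seal the space between cells. In the pituitary, stem cells (SCs) line the remnant of the embryonic cleft as an epithelium, while endocrine cells, such as the melanotrophs that make up most of the IL, are themselves descendants of that epithelium. The comparison asks how far the 9 genes mark SCs against endocrine cells.

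Members include 2 pairs of chromosomal neighbours (RefSeq annotation of GRCm38.p6). Krt8 and Krt18 lie on chromosome 15 with 23874 bases between them, and Cldn4 and Cldn3 lie on chromosome 5 with 39280 bases between them. In each pair the genes run in opposite directions. Their promoter windows, 250 bases before to 50 after the RefSeq start, are shown because the members of each pair were both higher in SCs, and Krt8 with Krt18 also encodes the keratin pair. The windows are chr15:102004293-102004592 (minus strand) for Krt8, chr15:102027966-102028265 (plus) for Krt18, chr5:134985964-134986263 (plus) for Cldn3 and chr5:134946885-134947184 (minus) for Cldn4. Capitals mark matches, on either strand, to the E-box CAGGTG bound by Snai and Zeb factors, the GC box GGGCGG, the AP-1 motif TGANTCA and the TATA box TATAAA.
Krt8: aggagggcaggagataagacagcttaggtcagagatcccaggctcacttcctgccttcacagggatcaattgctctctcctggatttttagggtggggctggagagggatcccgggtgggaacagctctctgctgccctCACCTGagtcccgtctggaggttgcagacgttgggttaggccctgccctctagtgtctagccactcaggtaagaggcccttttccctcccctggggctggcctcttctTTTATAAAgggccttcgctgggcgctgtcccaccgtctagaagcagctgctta
Krt18: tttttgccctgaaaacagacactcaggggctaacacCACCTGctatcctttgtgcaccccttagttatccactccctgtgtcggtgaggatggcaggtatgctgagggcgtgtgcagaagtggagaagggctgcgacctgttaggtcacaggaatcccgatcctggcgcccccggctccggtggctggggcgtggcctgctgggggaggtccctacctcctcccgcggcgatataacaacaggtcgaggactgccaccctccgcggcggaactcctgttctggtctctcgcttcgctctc
Cldn3: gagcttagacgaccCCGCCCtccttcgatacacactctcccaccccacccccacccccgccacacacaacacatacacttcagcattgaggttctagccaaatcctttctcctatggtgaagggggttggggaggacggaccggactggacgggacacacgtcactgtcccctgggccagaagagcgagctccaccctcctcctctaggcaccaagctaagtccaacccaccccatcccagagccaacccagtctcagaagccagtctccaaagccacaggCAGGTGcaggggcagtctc
Cldn4: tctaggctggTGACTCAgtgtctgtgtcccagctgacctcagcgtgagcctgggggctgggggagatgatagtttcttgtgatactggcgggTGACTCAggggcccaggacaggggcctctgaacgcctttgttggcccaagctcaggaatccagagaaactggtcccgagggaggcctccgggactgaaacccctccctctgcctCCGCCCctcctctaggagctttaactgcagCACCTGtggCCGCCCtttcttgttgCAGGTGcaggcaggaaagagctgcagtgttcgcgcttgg

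RefSeq gave such windows for 7 of the 9 genes (all but Krt19 and Cdh1), 8 windows in all since Cldn7 had 2. CAGGTG was present in 7 of the 8 windows, among them at least 1 for each of the 7 genes, against 20.2% of 32841 mouse promoter windows of the same length. GGGCGG was in 5 of the 8 windows (35.7% of all windows) and TGANTCA in 1, that of Cldn4, which held 2 copies (7.81%). TATAAA was in 1, that of Krt8, where matches on both strands overlapped (13.6%), and the grainyhead motif AACNNGTT was in none (4.21%). The windows of the members held 52 to 66.3% G and C, against a median of 52.7% over all windows, and the part of this composition was not tested. Such matches describe the letters of these windows and were not tested as sites.

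Cell types were named from marker genes in clusters built without the 9 genes and without the epithelial genes listed further on. SC-like cells numbered 136 in WT, 105 in P27NULL and 92 in S2CK, with 532221, 379355 and 658282 UMIs in all, and melanotroph-like cells 1288, 3545 and 3009, with 6153767, 13702633 and 17083818 UMIs. Median UMIs per SC-like cell were 2027, 2275 and 3561.5. Sox9, the SC transcription factor, was at 80.8, 119 and 100 CPM (the usual scaling of UMIs to the total of the cells summed) in SC-like cells and at 2.28, 3.21 and 3.45 CPM in melanotroph-like cells. Pomc, the melanotroph hormone gene, made up 2.60, 1.22 and 2.08% of the UMIs of SC-like cells against 17.3, 13.3 and 13.9% in melanotroph-like cells. Free RNA and mixed droplets were not told apart from expression. Endothelial-like, macrophage or microglia-like and T or NK-like cells, summed, serve below as a background level. The premise that these cells lack the 9 genes was not tested. For Krt18, 16 of the 22 UMIs in this background over the libraries came from endothelial-like cells. Melanotroph-like cells held 34.5, 30.9 and 16.9 CPM of Cdkn1b, and SC-like cells 47.0, 50.1 and 24.3 CPM, so that P27NULL was within counting error of WT in SC-like cells, and whether these 3' tags lie in the deleted part of the gene is not given in the sources used here. P27NULL is therefore the library labelled so. Of the barcodes, 10 occurred in more than 1 library. In S2CK, 9 of the 92 SC-like cells were placed among pituicyte-like cells (glia of the posterior lobe) when all libraries were clustered together, as were 1 of 105 in P27NULL and 0 in WT. These 9 included all 6 SC-like cells of S2CK without a UMI of any of the 9 genes, and S2CK values without them are given below for Krt18, Krt8, Cdh1, Epcam and Cldn7.

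All 9 genes were higher in SC-like than in melanotroph-like cells (edgeR quasi-likelihood test on sums per library, 3 against 3 with the library as a block). The 3 SC-like values lay above all 3 melanotroph-like values for each gene. The share of all tested genes separated in this way was not counted. Of 12013 genes tested, 2591, or 21.6%, were higher in SC-like cells and 19.7% lower at an adjusted p under 0.05. All but Krt19, Cdh1 and Cldn4 also passed the filter on low counts through their melanotroph-like sums alone. These 3 genes passed it through SC-like cells only and so had to differ. The median log2 difference over all tested genes was -0.03. Since each library is another genotype, p-values set the difference between SC-like and melanotroph-like cells against its spread over 3 genotypes. That spread is in part drawn by edgeR from the other tested genes. An exact sign-flip test over 3 pairs could not give a p below 0.25.

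**Figure D1:**
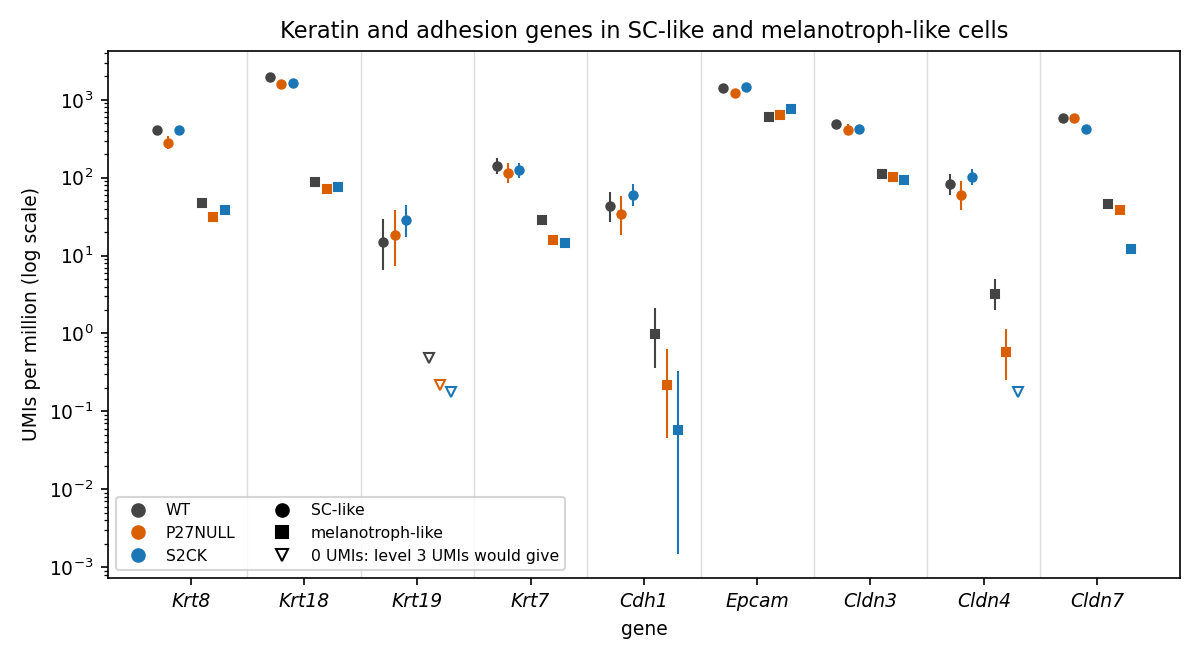
Level of the 9 genes in CPM (log scale) in SC-like (circles) and melanotroph-like cells (squares) of WT, P27NULL and S2CK, with 95% Poisson intervals of the counts. Open triangles mark sums with 0 UMIs at the level that 3 UMIs would give. Circles lie above squares for each gene, by the least for Epcam.

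Among the keratins, Krt18, the type I partner of Krt8, stood at 1977, 1587 and 1665 CPM in SC-like cells of WT, P27NULL and S2CK and at 88.9, 70.9 and 76.6 CPM in melanotroph-like cells. The SC-like level was 22.2, 22.4 and 21.7 times the melanotroph-like one, so the fold hardly varied over the libraries (log2 difference 4.26 ± 0.11 SE, edgeR adjusted p = 3.96e-20). Krt18 UMIs were found in 90.4, 93.3 and 84.8% of SC-like cells, and in 92.8% of the 83 S2CK cells that the joint clusters also named SC-like. At 1000 UMIs per cell the shares were 74.4, 73.3 and 68.5% in SC-like cells, 7.58, 6.66 and 7.51% in melanotroph-like cells and 3.54, 3.28 and 0.962% in endothelial and immune-like cells. The Krt18 level of melanotroph-like cells was 1.75 times that of endothelial and immune-like cells in WT (95% interval 1.02 to 3.32), 2.55 times in P27NULL (0.992 to 9.37) and 4.01 times in S2CK (1.71 to 12.4), so that in P27NULL it could not be told from that background. SC-like cells, at 6.73, 2.53 and 2.64% of all cells, held 60.4, 37.0 and 44.6% of the Krt18 UMIs of their library.

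Krt8, the type II partner, was at 406, 282 and 404 CPM in SC-like cells of WT, P27NULL and S2CK and at 47.1, 30.9 and 38.4 CPM in melanotroph-like cells. The folds of 8.61, 9.14 and 10.5 were smaller than those of Krt18 in each library (log2 difference 3.03 ± 0.13 SE, edgeR adjusted p = 2.04e-15). Krt8 in melanotroph-like cells of WT was at 12.1 times (2.15 to 479) the level of endothelial and immune-like cells, which held 1 UMI, and in P27NULL at 4.43 times (0.791 to 176). The ratio of Krt18 to Krt8 UMIs differed between cell types. In SC-like cells it was 4.87 (95% interval 4.20 to 5.66) in WT, 5.63 (4.57 to 6.98) in P27NULL and 4.12 (3.60 to 4.73) in S2CK. In melanotroph-like cells it was 1.89 (1.63 to 2.18), 2.30 (2.05 to 2.58) and 1.99 (1.81 to 2.19), and the intervals of the cell types did not overlap in any library. In gonadotroph-like cells, the anterior lobe cells that make Lhb and Fshb, it was 1.52 in WT, 0.519 in P27NULL and 0.600 in S2CK. Ratios of UMIs of different genes also depend on how well each 3' end is captured, so only their change between cell types is compared.

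Krt7, a type II keratin of glands and ducts, was at 143, 116 and 126 CPM in SC-like cells and at 28.4, 15.8 and 14.6 CPM in melanotroph-like cells (log2 difference 2.57 ± 0.19 SE, edgeR adjusted p = 3.42e-11). The folds were 5.02 in WT, 7.32 in P27NULL and 8.65 in S2CK. In endothelial and immune-like cells it was at 23.4, 6.96 and 0 CPM. In WT and P27NULL the melanotroph-like level of Krt7 was within counting error of that background. Krt19, a type I keratin of ducts, was the rarest of the 4, with 8, 7 and 19 UMIs in SC-like cells (15.0, 18.5 and 28.9 CPM) in 6, 5 and 13 cells. It had 0 UMIs in melanotroph-like cells of any library, and the SC-like level was at least 30.8-fold higher in WT, 84.3-fold in P27NULL and 164-fold in S2CK when 3 UMIs are allowed per sum. Outside SC-like cells the named cell types held Krt19 in connective tissue-like cells only, with 1 UMI in WT and 2 in P27NULL, and the WT library held 1 further UMI in unnamed cells. All 6 Krt19-positive SC-like cells of WT and all 13 of S2CK also held Krt8 and Krt18 UMIs, as did 4 and 5 of the 5 in P27NULL, and such cells were deep ones in WT (median 6528 UMIs) and S2CK (12682) but not in P27NULL (2007).

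Among the adhesion genes, Cdh1 had 23, 13 and 40 UMIs in SC-like cells of WT, P27NULL and S2CK (43.2, 34.3 and 60.8 CPM) and 6, 3 and 1 UMIs in the far larger melanotroph-like sums (0.975, 0.219 and 0.0585 CPM). The ratio was 44.3 in WT (95% interval 17.5 to 133), 157 in P27NULL (43.0 to 856) and in S2CK rests on 1 melanotroph-like UMI (interval from 176). The fitted log2 difference was 7.0 ± 0.56 SE, with no p-value given since Cdh1 passed the filter through SC-like cells only. Melanotroph-like cells showed no more Cdh1 than endothelial and immune-like cells, at 7.79, 6.96 and 0 CPM from 2, 1 and 0 UMIs. Cdh1 was not confined to SC-like cells: connective tissue-like cells held 4, 3 and 7 UMIs (34.1, 20 and 47.9 CPM), a range that overlapped the SC-like one. These came from 3, 2 and 4 cells, of which 0, 1 and 1 held a UMI of another of the 9 genes. Cdh1 was found in 13.2, 10.5 and 21.7% of SC-like cells (24.1% in S2CK without the 9 pituicyte-like cells), and at 1000 UMIs per cell in 3.20, 2.86 and 3.26%, so at this depth most SC-like cells give no Cdh1 UMI.

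Epcam was widespread in endocrine cells as well. It was at 1437, 1220 and 1454 CPM in SC-like cells and at 607, 642 and 756 CPM in melanotroph-like cells, the smallest difference of the 9 (folds 2.37, 1.90 and 1.92, log2 difference 0.83 ± 0.10 SE, edgeR adjusted p = 1.50e-07). Epcam UMIs were in 91.2, 88.6 and 89.1% of SC-like cells (98.8% in S2CK without the 9 pituicyte-like cells, at 1521 CPM) and in 87.6, 80.1 and 94.5% of the deeper melanotroph-like cells. At 1000 UMIs per cell these shares parted to 75.2, 63.8 and 81.5% against 45.4, 45.4 and 51.6%, with 5.31, 6.56 and 5.77% in endothelial and immune-like cells. Corticotroph-like cells (773, 739 and 724 CPM), gonadotroph-like cells (864, 692 and 785 CPM) and Pou1f1-lineage-like cells (752, 1152 and 914 CPM), the latter being the cells that make growth hormone, prolactin or thyrotropin, held levels at or above those of melanotroph-like cells except corticotroph-like cells of S2CK. In the 28 Pou1f1-lineage-like cells of P27NULL the interval of the Epcam level (924 to 1420 CPM) overlapped that of SC-like cells (1112 to 1337 CPM). SC-like cells held 14.1, 4.59 and 6.54% of all Epcam UMIs.

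The claudins differed among themselves. Cldn4 was rare in endocrine cells, with 44, 23 and 68 UMIs in SC-like cells (82.7, 60.6 and 103 CPM) and 20, 8 and 0 UMIs in melanotroph-like cells (3.25, 0.584 and 0 CPM). The SC-like level was 25.4 times (14.7 to 45.6) the melanotroph-like one in WT, 104 times (44.8 to 269) in P27NULL and at least 588-fold higher in S2CK. The fitted log2 difference was 6.39 ± 0.52 SE, with no p-value given since Cldn4 passed the filter through SC-like cells only. SC-like cells held 67.7, 71.9 and 100% of the Cldn4 UMIs of their library. Outside SC-like and melanotroph-like cells, 1 UMI was found in gonadotroph-like cells of WT and 1 in those of P27NULL.

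Cldn3 and Cldn7 were found in endocrine cells too. Cldn3 was at 487, 414 and 425 CPM in SC-like and 113, 102 and 92.6 CPM in melanotroph-like cells, with folds of 4.31, 4.07 and 4.59 that stayed within each other's intervals (log2 difference 1.91 ± 0.12 SE, edgeR adjusted p = 1.47e-12). Cldn7 was at 577, 577 and 425 CPM in SC-like cells and at 46.2, 39.0 and 12.3 CPM in melanotroph-like cells (log2 difference 3.99 ± 0.19 SE, edgeR adjusted p = 1.25e-14). Its folds were 12.5 in WT and 14.8 in P27NULL but 34.6 in S2CK, where the melanotroph-like level was lowest. Cldn3 in melanotroph-like cells was 7.25, 14.6 and 8.07 times the level of endothelial and immune-like cells, where it had 4, 1 and 3 UMIs. Cldn7 was at 11.8 times that level in WT (2.11 to 469, from 1 UMI), and those cells held 0 Cldn7 UMIs in P27NULL and S2CK, where the lower bounds of the ratio were 1.51 and 0.864, so that in S2CK the melanotroph-like level could not be told from this background. The ratio of Cldn3 to Cldn7 UMIs was 0.844, 0.717 and 1.0 in SC-like cells against 2.45, 2.61 and 7.53 in melanotroph-like cells. No intervals of SC-like and melanotroph-like cells overlapped. In gonadotroph-like cells the ratio was 0.878, 0.745 and 4.23, with intervals that overlapped the SC-like ones in WT and P27NULL but not in S2CK. In corticotroph-like cells it was 0.628, 1.95 and 3.5, overlapping the SC-like interval in WT only.

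Against anterior endocrine-like cells (corticotroph-like, gonadotroph-like and Pou1f1-lineage-like cells summed per library) all 9 genes were also higher in SC-like cells. Here too the groups did not overlap, and the share of all tested genes without overlap was again not counted. Of 7507 genes tested, 19.5% were higher and 15.5% lower in SC-like cells, and the median log2 difference was 0.01. The SC-like sums are those of the first comparison, so the 2 comparisons share them. Log2 differences were 2.70 ± 0.23 for Krt8, 4.92 ± 0.28 for Krt18, 2.85 ± 0.21 for Krt7, 2.0 ± 0.19 for Cldn3 and 2.65 ± 0.24 for Cldn7, and edgeR adjusted p-values for these 5 lay between 5.75e-08 and 5.76e-06. Epcam again differed least, at 0.70 ± 0.13 (edgeR adjusted p = 0.00114, and 0.0208 without the P27NULL library). Krt19 (6.76), Cdh1 (4.64) and Cldn4 (6.33) passed the filter through SC-like cells only, with 0, 4 and 2 UMIs over all 3 anterior sums, so their fitted values depend on the prior count. The Krt18 fold was 19.6 in WT, 39.0 in P27NULL and 68.6 in S2CK, since the anterior level was 101 CPM in WT against 40.7 and 24.3 CPM.

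Over all cell types, SC-like cells held the highest median level of each gene. For Krt8 the order of medians over the libraries went on with gonadotroph-like (127, 109 and 71.8 CPM), melanotroph-like, connective tissue-like and corticotroph-like cells (23.9, 17.7 and 16.8 CPM). Connective tissue-like and corticotroph-like cells did not differ beyond their spread, and endothelial-like cells had 0 Krt8 UMIs in any library. For Krt18 melanotroph-like cells came next, but connective tissue-like (68.1, 40.0 and 88.9 CPM) and endothelial-like cells (75.6, 57.9 and 34 CPM) overlapped them, and gonadotroph-like cells ranged from 43.1 CPM in S2CK to 193 CPM in WT. For Cldn7 gonadotroph-like cells (113, 214 and 62.2 CPM) and corticotroph-like cells (103, 70.7 and 26.9 CPM) each lay above melanotroph-like cells of the same library. Pou1f1-lineage-like cells, whose median Epcam level over the libraries was the highest after that of SC-like cells, had 0 Cldn7 UMIs in any library. They had 5, 3 and 1 Cldn3 UMIs. For Cldn3 gonadotroph-like cells (99.1, 159 and 263 CPM) had the second highest median, and melanotroph-like, pituicyte-like (81.6 and 113 CPM in WT and P27NULL, 7 UMIs each) and corticotroph-like cells (64.4, 138 and 94.3 CPM) after them overlapped. For Krt7 gonadotroph-like cells (38.5, 23.1 and 43.1 CPM) also came second, overlapping melanotroph-like cells.

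**Figure D2:**
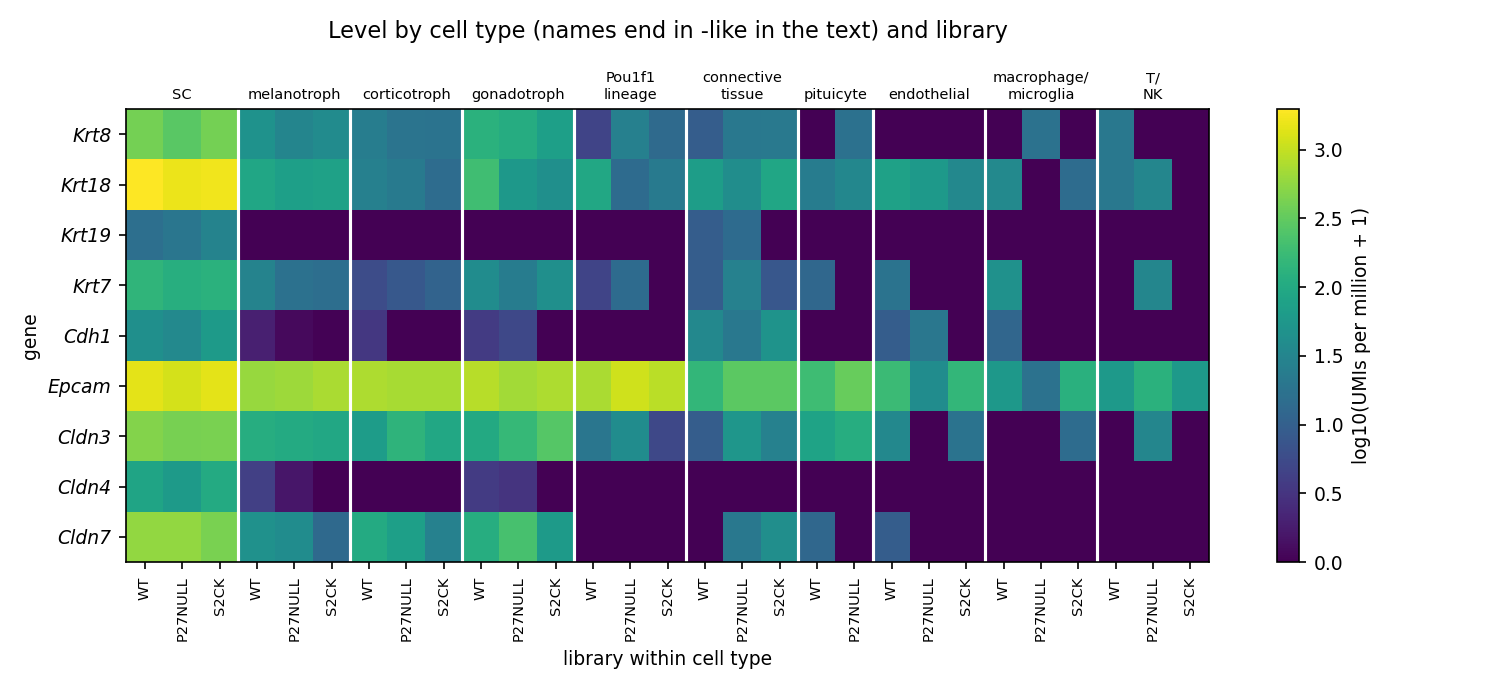
Level of the 9 genes as log10(CPM + 1), shown by color, in each cell type and library. S2CK had no pituicyte-like cluster of its own. SC-like columns are bright in each row, the Epcam row is bright in all endocrine cells, and the Cldn7 row is at 0 in Pou1f1-lineage-like cells.

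SC-like cells held several of the genes at once. Of the 9, the median SC-like cell held UMIs of 5 in WT, 4 in P27NULL and 5 in S2CK, or 6 in the 83 S2CK cells named SC-like in the joint clusters. At 1000 UMIs per cell the mean was 3.06 ± 1.38 (SD over 125 cells), 2.74 ± 1.32 (105 cells) and 2.66 ± 1.56 (92 cells), against 0.771, 0.714 and 0.748 in melanotroph-like cells. Of the SC-like cells with a Krt8 UMI, 74 of 77, 49 of 52 and 59 of 61 also had Krt18, against 49 of 59, 49 of 53 and 19 of 31 of those without Krt8, so that in P27NULL the shares hardly differed. Cldn4-positive cells more often held Krt8 (27 of 30, 14 of 19 and 29 of 32) than Cldn4-negative ones (50 of 106, 38 of 86 and 32 of 60), but they were also the deeper cells, with medians of 4294, 2810 and 10002 UMIs against 1935, 2085 and 2903, and the part of depth was not tested.

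Over 27 sums of a library and cell type with at least 20 cells, genes most like each member were named by Pearson correlation of log2(CPM + 1), as a description only, since sums of a library share its free RNA and low genes are at 0 in most sums. For Krt8 they were Tmem30b (0.848), Cldn23 (0.827) and Arhgef16 (0.816). For Krt18 they were Rab1a (0.820), the SC marker Mia (0.811) and Cldn4 (0.780). For Krt7 they were Prrg3, Gsta4 and Mpped2 (0.814 to 0.80). Cdh1 was most like Gstm2 (0.941), Aldh1a1, a retinoic acid enzyme (0.915), and the basement membrane gene Nid2 (0.882). Epcam went with Hspa2 (0.900) and Nme5 (0.895). Cldn3 went with Hspa2 (0.927) and Ptprf (0.910), Cldn4 with Fxyd3 (0.979), Clic3 (0.976) and Krt17 (0.965), and Cldn7 with Rab11fip1 (0.922), Tbc1d30 (0.898) and Baiap2l1 (0.895). Krt19, with 38 UMIs in all, was left out. Among the members, Epcam with Cldn3 (0.858) and Cldn3 with Cldn7 (0.855) were the most alike, and Cdh1 with Epcam (0.0863) the least.

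Other epithelial genes were counted in 8 lists of 99 genes in all. Of the 20 other tight junction genes 16 could be tested against melanotroph-like cells, and 15 were higher in SC-like cells, 0 lower (background 21.6 and 19.7%), with a median log2 difference of 2.09 against -0.03 for all genes. Of the 13 that passed the filter in melanotroph-like cells as well, 12 were higher. By adjusted p the leading ones of the 15 were Cldn10 (6.64), Cldn8 (5.78) and Cldn9 (2.78). Cldn10 and Cldn8 had passed the filter through SC-like cells only. Cldn12 (0.11, edgeR adjusted p = 0.85) was the one that did not pass the test. Against anterior endocrine-like cells 13 could be tested and were higher, of which 2 had passed the filter in those cells too and 11 through SC-like cells only. For desmosomes, the spot welds to which keratin filaments attach, 9 of 10 were higher and 0 lower (median 2.05), and of the 5 that passed the filter in melanotroph-like cells too 4 were higher. By adjusted p the higher ones were led by Perp (4.95), Dsp (4.27) and Jup (2.44). Perp and Dsp had passed the filter through SC-like cells only. Pkp4 (0.46, edgeR adjusted p = 0.082) did not pass the test. Dsp, which encodes the plaque protein desmoplakin, did not pass the test against anterior endocrine-like cells (0.41, edgeR adjusted p = 0.26), while the 6 other desmosome genes tested there were higher but had passed the filter through SC-like cells only. At adherens junctions 9 of 11 were higher and 0 lower (median 1.76), 7 of the 8 that passed the filter in melanotroph-like cells too. The higher ones were led by Pdlim1 (9.89, from 1 UMI in each melanotroph-like sum), Ctnna1 (2.80) and Nectin3 (3.81). Ctnna1 encodes the alpha-catenin that links cadherins to actin. Pdlim1 and Nectin3 had passed the filter through SC-like cells only. Nectin4 (1.85, edgeR adjusted p = 0.055) and Nectin1 (-0.86, edgeR adjusted p = 0.19) did not pass.

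Of the epithelial surface and serine protease genes 9 of 10 were higher (median 1.43), 6 of the 7 that passed the filter in melanotroph-like cells too. Among the higher ones were the tetraspanin Cd9 (3.00) and the membrane protease gene St14 (4.08), the latter having passed the filter through SC-like cells only. Ap1m2 did not pass (0.30, edgeR adjusted p = 0.41). Of the epithelial transcription and splicing factors all 6 tested were higher (median 3.53), although just 2 passed the filter in melanotroph-like cells as well. They were led by Grhl2 (8.15), a grainyhead factor of epithelia, with Elf3 (2.72) and Klf5 (4.33). Grhl2 and Klf5 were among those that passed the filter through SC-like cells only. Repressors of Cdh1 were scarce: 2 of 6 could be tested, of which Zeb1 was lower in SC-like cells (-1.96, edgeR adjusted p = 0.0015) and Snai2 did not pass (-1.40, edgeR adjusted p = 0.18). Zeb1 was below the filter in the SC-like sum of WT, at 1.88 CPM. Other keratins did not all follow the 9 genes. Of 12, 4 could be tested. Krt17, which passed the filter through SC-like cells only, was higher (6.09). Krt222 (-4.47), Krt14 (-2.55) and Krt10 (-0.78) were lower, but Krt222 and Krt14 had passed the filter through melanotroph-like cells only. Of 8 intermediate filament genes of other families 3 were higher and 3 lower, but the 3 higher ones passed the filter through SC-like cells only, and of the 5 that passed it in melanotroph-like cells too 0 were higher. Vim (4.99), Nes (5.94) and Synm (5.71) were higher, and Nefh, Ina (-2.65) and Lmnb2 (-1.51) lower, while the lamin genes Lmna (-0.20, edgeR adjusted p = 0.46) and Lmnb1 (edgeR adjusted p = 0.995) did not pass. Nefh had 0 UMIs in SC-like cells, so it passed the filter through melanotroph-like cells only and its fold has no bound in the fit. Vim was at 188, 156 and 88.1 CPM in SC-like cells that also held the keratins.

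**Figure D3:**
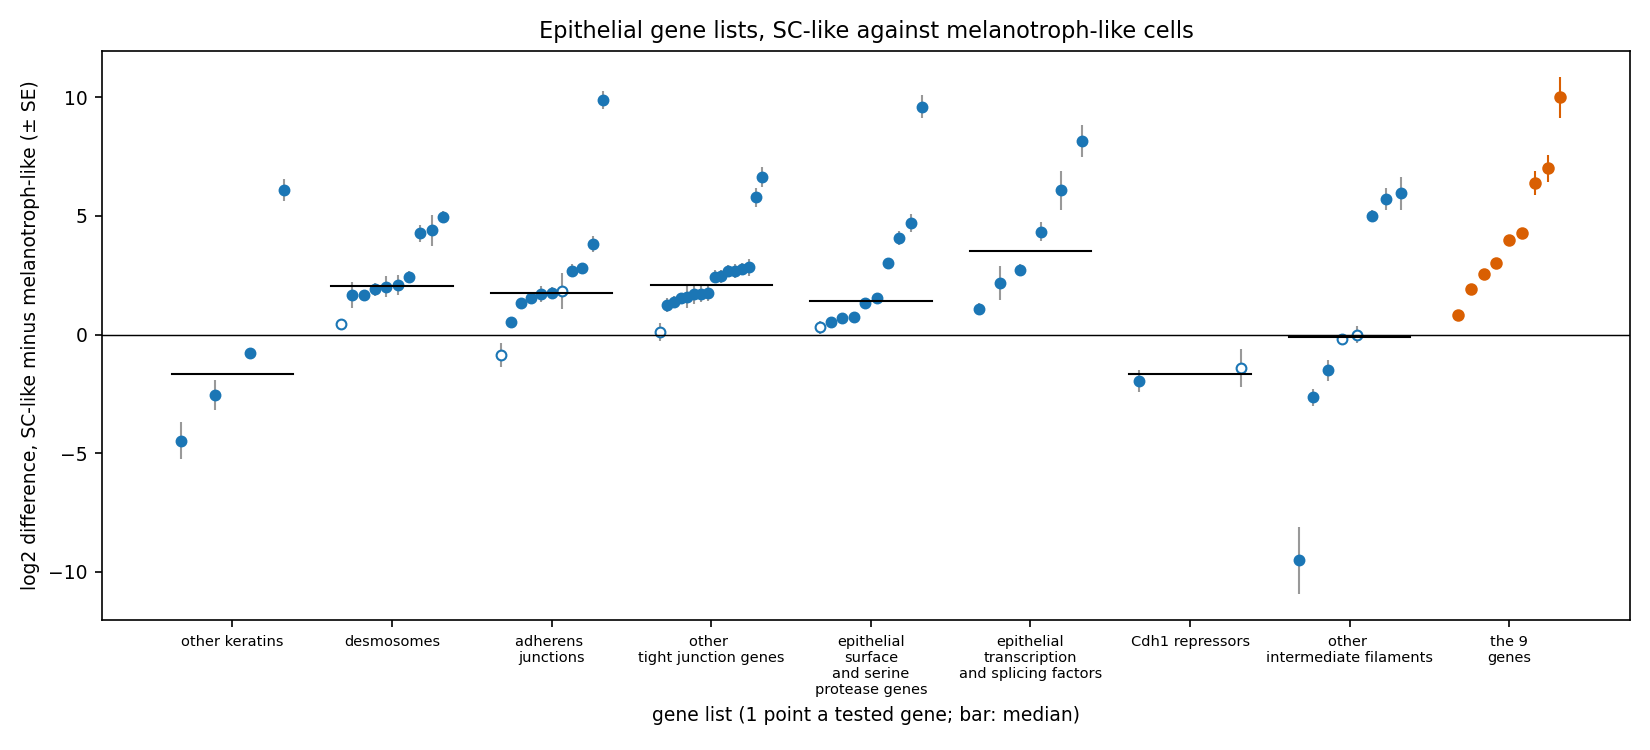
Log2 difference between SC-like and melanotroph-like cells (vertical axis, with SE) for each tested gene of the 8 lists and, at the right, the 9 genes. Filled points passed an adjusted p under 0.05, open points did not, and bars are medians. Junction, protease and transcription factor genes lie mostly above 0, while other keratins and other intermediate filaments lie on both sides.

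Between genotypes there is 1 library each, so no test was made, and the intervals below cover counting error only. In SC-like cells none of the 9 genes with at least 50 UMIs in a pair of libraries changed by 1 or more on the log2 scale, 0 of 7 for P27NULL against WT, 0 of 8 for S2CK against P27NULL and 0 of 8 for S2CK against WT. This call depended on the setting for Cldn7, which was at -1.13 for S2CK against WT with cells thinned to 1000 UMIs, for Cdh1, which was at 1.05 for S2CK against P27NULL with the study's own markers, and for Krt7, at 1.62 against the 18 female-called P27NULL cells. Over all genes with that many UMIs, 2.42%, 8.06% and 6.26% were past this fold, so a count of 0 is near the background. The nearest to it were Cdh1 (0.83, interval -0.11 to 1.85) and Cldn4 (0.77, 0.07 to 1.52) for S2CK against P27NULL. Krt8 was lower in the library labelled P27NULL than in WT (-0.52, -0.87 to -0.18) and higher in S2CK than in P27NULL (0.52, 0.19 to 0.86). Cldn7 was lower in S2CK than in either (-0.44, -0.70 to -0.18 against P27NULL, and -0.44, -0.68 to -0.20 against WT), and the share of SC-like cells with Cldn7 at 1000 UMIs was 55.2, 50.5 and 26.1%. Without the 9 pituicyte-like cells the S2CK level was 445 CPM for Cldn7, 1741 CPM for Krt18 and 423 CPM for Krt8, against 425, 1665 and 404 CPM with them.

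In melanotroph-like cells 0 of 6 genes with enough UMIs were past the fold for P27NULL against WT (background 2.69%), 1 of 6 for S2CK against P27NULL (4.37%) and 1 of 6 for S2CK against WT (3.97%). That gene was Cldn7. It had 284 UMIs in WT, 534 in P27NULL and 210 in S2CK (46.2, 39.0 and 12.3 CPM), a log2 ratio of -1.66 (-1.90 to -1.43) against P27NULL and -1.91 (-2.17 to -1.65) against WT. Cldn7 was also lowest in S2CK in corticotroph-like cells (26.9 CPM) and gonadotroph-like cells (62.2 CPM). The P27NULL library pooled a male and a female source, so that sex and animal cannot be told apart in it. Cells with Xist UMIs and no Y-linked UMI were called female, and all cells without Xist UMIs male, with or without Y-linked UMIs. Male-called cells may thus include female cells in which Xist was missed. Split this way, melanotroph-like cells of P27NULL held Cldn7 at 66.3 CPM in 641 female-called cells and 32 CPM in 2893 male-called cells. The log2 ratio was 1.05 (0.79 to 1.31), and 2.95% of all genes were past the fold. Called cells were 0 female and 2020 male in WT, 766 and 3370 in P27NULL (17 with both signals) and 3274 and 214 in S2CK. Against female-called P27NULL cells the S2CK ratio was -2.43. With 1 library a genotype, genotype, library, animal and sex cannot be told apart.

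**Figure D4:**
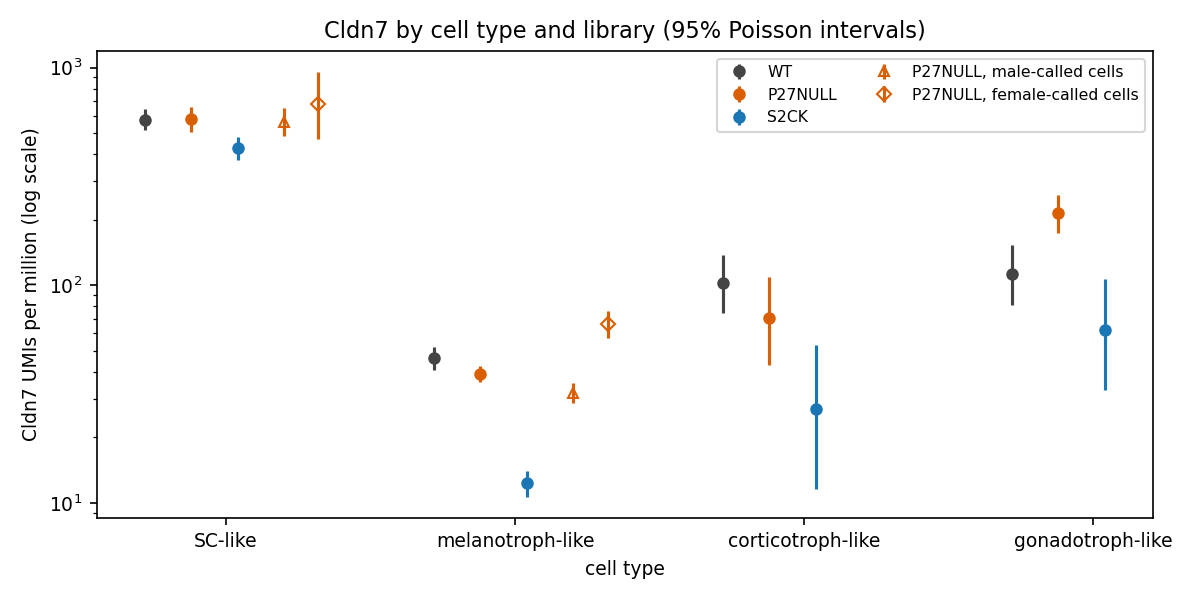
Cldn7 in CPM (log scale) in 4 cell types and 3 libraries, with 95% Poisson intervals. Open symbols split P27NULL into male-called and female-called cells. S2CK is the lowest of the 3 libraries in each cell type, and female-called P27NULL melanotroph-like cells lie above male-called ones.

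Among the other members with at least 50 UMIs, Krt7 was lower than in WT in both other libraries, at 28.4, 15.8 and 14.6 CPM (-0.84, -1.14 to -0.55 for P27NULL and -0.96, -1.25 to -0.68 for S2CK). Krt8 was also lower in P27NULL than in WT (-0.61, -0.83 to -0.39), and Krt18 by less (-0.33, -0.48 to -0.17). Epcam was higher in S2CK than in WT (0.32, 0.26 to 0.37), and Cldn3 lower (-0.29, -0.42 to -0.16). Below 50 UMIs, Cldn4 had 20, 8 and 0 UMIs in melanotroph-like cells, a log2 ratio of -2.48 (-3.87 to -1.23) for P27NULL against WT, and was at least 18.5-fold lower in S2CK than in WT. Cdh1 had 6, 3 and 1 UMIs there, a log2 ratio of -4.06 (-9.58 to -1.01) for S2CK against WT that rests on 1 UMI. SC-like cells were 6.73% of WT cells and 2.53 and 2.64% of the others, and the part of free RNA from them in the melanotroph-like levels was not tested.

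**Figure D5:**
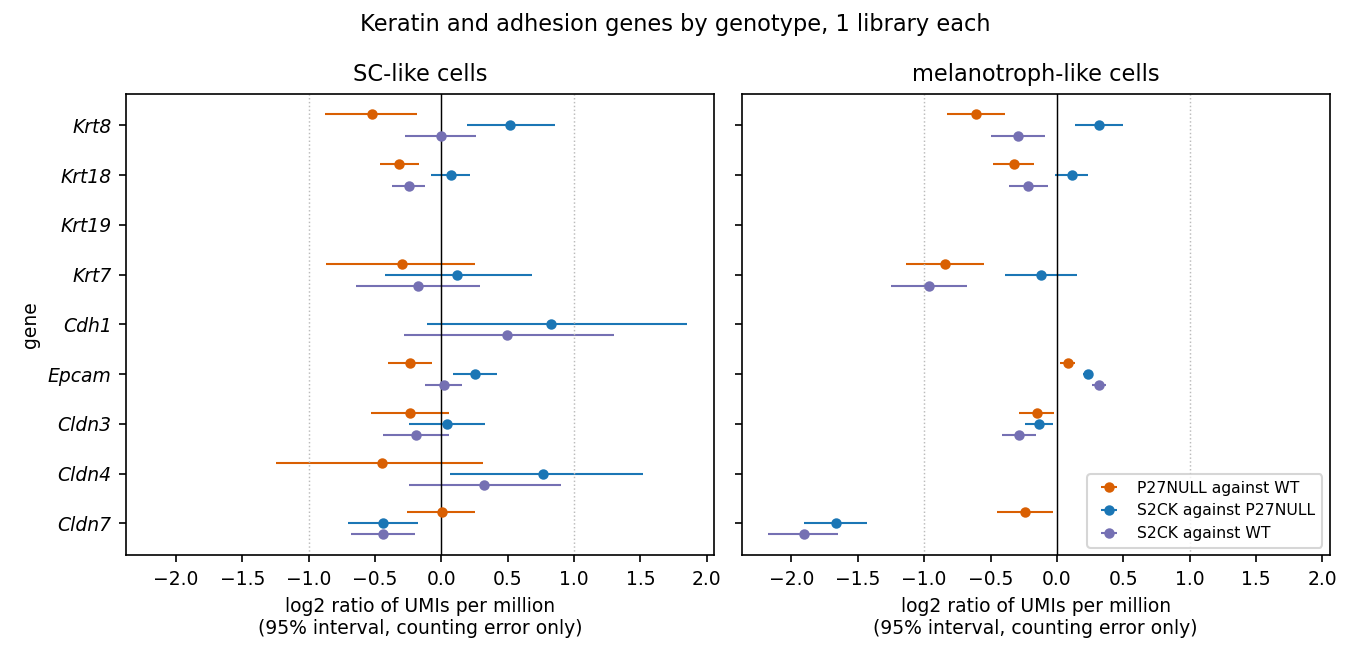
Log2 ratio of CPM between libraries for the 9 genes in SC-like (left) and melanotroph-like cells (right), with exact 95% intervals of the counts, for genes with at least 50 UMIs in a pair of libraries. Dotted lines mark ratios of -1 and 1. Only Cldn7 in melanotroph-like cells of S2CK lies past them.

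Among the list genes, those past the fold in SC-like cells included Krt17, higher in S2CK, and a few that were lower. Krt17, a type I keratin of basal and stressed epithelia, had 23, 5 and 71 UMIs (43.2, 13.2 and 108 CPM) in 16, 3 and 32 SC-like cells, a log2 ratio of 3.03 (1.74 to 4.70) for S2CK against P27NULL and 1.32 (0.62 to 2.07) against WT. All 32 S2CK cells with Krt17 held Krt18 and Epcam, and their median depth was 9911 UMIs against 3333.5 for cells without it. Lower in S2CK were Cdh2 (-1.24) and Cldn23 (-1.09) against P27NULL and Dsp (-1.15), Cgn (-1.06) and Vim (-1.09) against WT, while Ap1m2 was higher in P27NULL than in WT (1.12). In melanotroph-like cells Snai2, which encodes a repressor of Cdh1, was at 7, 64 and 120 UMIs (1.14, 4.67 and 7.02 CPM), a ratio of 2.04 (0.91 to 3.41) for P27NULL and 2.63 (1.54 to 3.97) for S2CK against WT. Nectin3 was higher (1.09) and Vim lower (-1.01) in P27NULL than in WT, and Pkp2 was lower in S2CK than in both others (-1.03 against P27NULL and -1.02 against WT).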

How the data were processed

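The authors used the Chromium 3' chemistry of 10x Genomics and a HiSeq4000, with UMI counts per gene and barcode taken on mm10 (Cell Ranger 3.0.2, STAR 2.5.1b, R 3.6.0 and Seurat 3 in the submitters' processing notes). The deposited tables hold raw UMI counts, not normalized, with a mitochondrial share under 10% in each cell. The lowest total per cell is 502 UMIs in WT, 1005 in P27NULL and 1002 in S2CK, so WT was filtered more loosely. The tables hold 2020, 4153 and 3488 cells with 8332285, 15588317 and 19239147 UMIs.

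Libraries were clustered alone for SC-like and melanotroph-like cells and together for other types (scanpy 1.11.5, Python 3.11.15, counts scaled to 10000, 2000 variable genes, 20 components, 20 neighbours, Leiden resolution 1). The 9 genes, the list genes, sex-linked genes, immediate early genes and Sox2, Sox9, Pomc, Tbx19 and Cdkn1b (142 genes in all) were left out of clustering. A name needed 3 detected markers, a mean relative level of at least 0.3 and a lead of 0.1 over the next type or own markers among its leading genes, thresholds set after the data were seen. The members and lists were chosen with earlier results of these data known. Scrublet called 11 doublets, too few to have worked, so doublets were kept, and an alternative left out the 268 highest scores.

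The counts of each cell type in a library were added up and tested with edgeR 4.0.16 in R 4.3.3 (TMM factors, filterByExpr, quasi-likelihood F-test, library as a block, Benjamini-Hochberg over all genes tested). The filter stood at 2.94 CPM for the melanotroph-like and 14.3 CPM for the anterior comparison. Within each library SC-like and melanotroph-like cells share a library number by construction, which is the pairing the block uses. Genotypes were compared as log2 ratios of CPM with exact conditional intervals. Shares were recomputed with each cell thinned to 1000 UMIs, which left out 11 SC-like and 22 melanotroph-like cells of WT. Intervals cover counting error only. All 9 genes are named, and of each list up to 3 genes per direction with the smallest adjusted p and, by genotype, up to 2 past the fold with the most UMIs. List genes not called are named where 1 or 2 remained, after their values were seen. Results for 3 genes that this rule names are not reported here. Steps were tested on simulated counts. Promoter sequences are from RefSeq (GRCm38.p6).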

Additional observations from a re-analysis of the deposited data

Results flagged for a closer look

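In each case below the ratio between genotypes had opposite signs in the only library of each kind for SC-like and melanotroph-like cells, and the difference between the ratios was not tested. Epcam in P27NULL against WT had a log2 ratio of -0.24 in SC-like cells (interval -0.41 to -0.07) and 0.08 in melanotroph-like cells (0.03 to 0.14), the latter -0.01 when Pomc, mitochondrial and ribosomal protein genes are left out of the total. Cldn4 in S2CK against P27NULL had a log2 ratio of 0.77 in SC-like cells (0.07 to 1.52), while in melanotroph-like cells it had 0 UMIs in S2CK against 8 in P27NULL.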

How the results depend on the processing

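Each of the 9 genes kept its direction and an adjusted p under 0.05 in both comparisons under all alternatives in which it was tested (11 to 13 per gene). For Krt19, Cdh1 and Cldn4 this is no support wherever the filter applied, since they passed it through SC-like cells only. The alternatives included a fit without the replicate block, where 2404 genes were higher and 1937 lower than in melanotroph-like cells (1310 and 898 for anterior endocrine-like cells). The sizes of the rare members rested on single libraries: against melanotroph-like cells Krt19 was at 9.28 without S2CK and 10.37 without WT, Cdh1 at 5.95 and 8.13, and Cldn4 at 5.21 and 8.0. Counts over all genes moved more. DESeq2 called 1569 genes lower in SC-like than in melanotroph-like cells, and against anterior endocrine-like cells 912 higher and 525 lower. With cells thinned to 1000 UMIs the counts were 1094 higher and 1051 lower of 7174 tested, and 419 and 307 of 2083, where fewer genes could be tested. With 1 library left out, 2253 to 2258 genes were higher and 1863 to 2210 lower against melanotroph-like cells, and 1357 to 1391 and 926 to 1058 against anterior endocrine-like cells. By genotype, 1 member passed the fold for S2CK against P27NULL in SC-like cells with the study's own markers (Cdh1, 1.05) and 1 against female-called P27NULL cells (Krt7, 1.62, from 2 UMIs in 18 cells). With thinned cells 1 passed for S2CK against WT in SC-like cells (Cldn7, -1.13) and 2 in melanotroph-like cells (Cldn7 and Krt7, -1.02). The causes were not tested beyond this. Shares of cells moved with depth, by more than their interval in 45 of 54 cases. No called result changed sign. The 92 to 136 SC-like cells per library limit Krt19, Cdh1 and Cldn4 to 7 to 68 UMIs per sum.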

Other observations

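Neurofilament genes, the intermediate filaments of neurons, were looked at after their values had been seen, and are given as values with no test. Nefl was at 39.0, 93.3 and 20.2 CPM in anterior endocrine-like cells of WT, P27NULL and S2CK and had 0, 1 and 0 UMIs in SC-like cells. Nefm was at 24.7, 55.0 and 17.5 CPM against 0, 1 and 0 UMIs. In melanotroph-like cells both stayed low, with Nefl at 0, 0.438 and 1.35 CPM and Nefm at 0.975, 3.07 and 1.76 CPM, whereas Nefh was at 15.1, 18.4 and 10.7 CPM there and at 16.2, 29.9 and 14.8 CPM in anterior endocrine-like cells.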
